A study of Mus musculus with 20 samples.

Results

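The laminin chain genes described here are Lama1, Lama2, Lama3, Lama4, Lama5, Lamb1, Lamb2, Lamb3 and Lamc1, chosen by mouse gene symbol. They are 9 of the 17104 genes, listed by Entrez identifier, that are present in at least 1 of the 3 deposited expression tables. The RNA came from MycCaP-Bo cells, an FVB prostate cancer line made from Myc-driven mouse tumors, labeled with luciferase and the fluorescent protein iRFP and passaged 3 times through mice for growth in bone. Tumor cells (CD45-, iRFP+) were sorted from bone lesions of FVB/N mice injected at 4 to 6 weeks of age, and the cells of 3 mice were pooled for each library. There were 4 groups of 5 libraries. Naive tumors received vehicle. Resist tumors received enzalutamide, an anti-androgen drug, at 30 mg/kg for 18 days. Resist-Mac tumors received the same enzalutamide and, in the last 4 days, clodronate liposomes at 1 mg per mouse, which deplete phagocytic macrophages. Naive-Mac is the name used here for tumors given vehicle and the same clodronate liposomes. The labels place Naive and Resist in batch 1, Resist-Mac in batch 2 and Naive-Mac in batch 3. Each comparison with a depleted group is therefore also one between batches, and the batch and the depletion cannot be told apart. The cells are 1 line, and the labels do not say more about the mice behind each pool.

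Laminins are secreted proteins of the basement membrane, each a trimer of an alpha, a beta and a gamma chain joined in a coiled coil. A laminin is named by the numbers of its chains, so that laminin-521 holds the alpha 5, beta 2 and gamma 1 chains encoded by Lama5, Lamb2 and Lamc1. The beta and gamma chains join inside the cell before an alpha chain completes the trimer and allows its secretion. The alpha chain carries the domains that bind integrins and dystroglycan on the cell surface. The alpha 3 and beta 3 chains, encoded by Lama3 and Lamb3, belong to laminins that anchor epithelial cells to the basement membrane, and beta 3 is often lost in prostate carcinoma. Laminins with the alpha 4 chain are typical of blood vessels, and those with alpha 2 of muscle.

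Lama5 and Lamb2 were the laminin chains called higher in Resist tumors, and their RefSeq promoter sequences are shown because the pair also varied together among libraries. RefSeq promoters (GRCm38.p6, a later build than the mm9 named in the submitters' processing notes) were matched for 5 of the 9 chains: Lama2, Lama5, Lamb1, Lamb2 and Lamb3. The promoters of a chromosome were left out of the search, so a chain not matched may still have a RefSeq promoter. The sequences run 5′ to 3′ on the strand of the gene, from 250 to 51 bases before the annotated start, and capitals mark GC boxes (GGGCGG on either strand).
Lama5 (chr2:180225910-180226109, minus strand): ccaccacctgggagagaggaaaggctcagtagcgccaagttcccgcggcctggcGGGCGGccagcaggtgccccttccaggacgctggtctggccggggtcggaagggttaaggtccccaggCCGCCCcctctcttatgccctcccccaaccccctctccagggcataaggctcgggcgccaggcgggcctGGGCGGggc
Lamb2 (chr9:108479612-108479811, plus strand): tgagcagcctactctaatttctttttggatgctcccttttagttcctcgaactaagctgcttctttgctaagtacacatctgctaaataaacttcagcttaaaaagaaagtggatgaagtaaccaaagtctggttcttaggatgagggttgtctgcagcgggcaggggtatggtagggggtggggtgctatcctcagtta
The Lama5 promoter window had 72% G and C, more than 93.6% of the 32851 mouse promoter windows searched, of the same 200 bases, and held 3 GC boxes. The Lamb2 window had 44.5% G and C and held 0 GC boxes. A GC box was found in 24.6% of all windows, and the Lamb1 window held 2. The AP-1 letters TGANTCA, the cAMP response element TGACGTCA and the TATA letters TATAAA were found in 5.57%, 0.828% and 9.14% of all windows, and in 0 of the windows of these 5 chains. Each motif was searched on both strands, and the GC boxes overlapped with no other motif.

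Expression was deposited as FPKM, a fragment number divided by transcript length and library size, and on this scale levels of different genes can be compared. Read counts were not used here, but low FPKM values multiplied by transcript length fell in steps, and the first step gave an estimate of 10200000 to 13200000 fragments per library. On that estimate, which rests on the longest annotated transcript of each gene, the chains at several FPKM rest on many fragments (for Lama5 in Naive libraries 3545 to 5435) and the lowest chains on few. The sorted cells held RNA of Krt8 (mean of 107 to 317 FPKM over the groups), a keratin of luminal cells, and of the prostate transcription factors Foxa1 (48.3 to 122 FPKM) and Hoxb13 (2.66 to 7.19 FPKM). However, the epithelial genes Krt18 and Cdh1 averaged at most 0.106 FPKM in any group. Epcam averaged 0.01 FPKM in Naive-Mac tumors and was not listed for the other groups. The label of prostate tumor cells was therefore met by Krt8, Foxa1 and Hoxb13 and not by these epithelial markers. The summed level of 8 neutrophil markers was 170 to 1226 FPKM in Naive, 59.9 to 580 in Resist, 391 to 8479 in Resist-Mac and 58.6 to 6027 in Naive-Mac libraries. The tables also differed in scale, since the FPKM of all genes summed to 519998 to 583255 in Naive and Resist libraries, 617494 to 761510 in Resist-Mac and 882276 to 1040436 in Naive-Mac. In bulk RNA, fewer cells that express a gene and less RNA per cell cannot be told apart.

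Of the 9 chains, 5 averaged at least 1 FPKM in Naive, Resist and Resist-Mac tumors, and 4 did so in Naive-Mac tumors, where Lama3 was below. The chains of laminin-521 led the order. In Naive tumors Lamb2 averaged 41.1 FPKM, Lamc1 40.2 and Lama5 35.2, and neighbors in this order overlapped. All 3 were above Lama3, at 9.48 FPKM, with no overlap between Lama5 and Lama3, and Lamb3 followed at 5.66. In Resist tumors the order was Lamb2 (63.7 FPKM), Lama5 (58.9), Lamc1 (36.9), Lama3 (7.23) and Lamb3 (4.54), and Lama5 did not overlap with Lamc1, nor Lamc1 with Lama3. In Resist-Mac tumors it was Lamb2 (40.9 FPKM), Lama5 (27.7), Lamc1 (19.8), Lama3 (3.49) and Lamb3 (2.37), and Lamc1 alone was clear of the chain below it. In Naive-Mac tumors it was Lamb2 (11.9 FPKM), Lamc1 (4.49), Lama5 (4.02) and Lamb3 (2.03), and Lamb2 alone was clear of the chain below it.

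**Figure D1:**
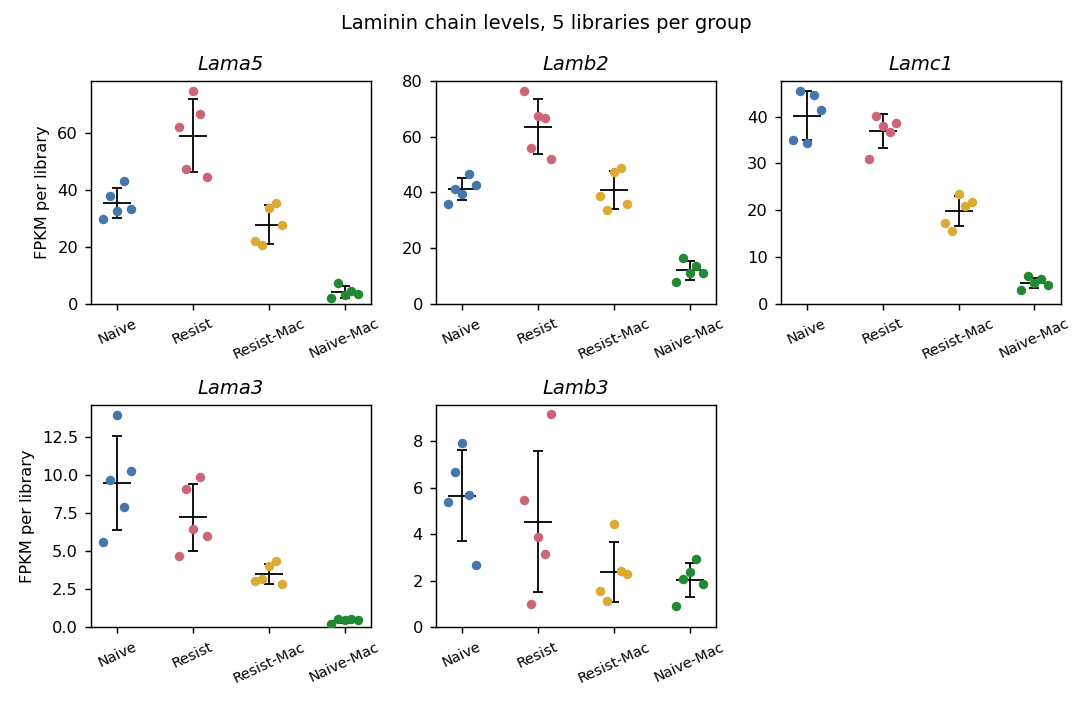
FPKM of 5 of the laminin chains in each library (points, 5 per group), with the group mean (dash) and SD (bars), and a separate axis from 0 for each gene. Lama5 and Lamb2 are highest in Resist, Lamc1 overlaps between Naive and Resist, and the Naive-Mac libraries are lowest for all but Lamb3, where groups overlap.

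The remaining chains were close to 0. Lamb1, the beta 1 chain of laminin-111 and laminin-511, was at 0.18, 0.23, 0.19, 0.31 and 0.24 FPKM in Naive replicates 1 to 5 and at 0.54, 0.28, 0.61, 0.50 and 0.36 FPKM in Resist. It was at 0.04 to 0.25 FPKM in Resist-Mac and 0.00 to 0.03 FPKM in Naive-Mac libraries. The Naive and Resist values of Lamb1 overlapped by 1 library on either side, at an estimated 10.9 to 19.9 and 20.4 to 42 fragments per library. Lama4, the vascular alpha chain, was at 0.06, 0.06, 0.09, 0.08 and 0.01 FPKM in Naive and 0.17, 0.04, 0.20, 0.23 and 0.36 FPKM in Resist, which overlapped. In Naive-Mac tumors it was listed at 0 in 5 of 5 libraries, and in Resist-Mac it was at 0.01 to 0.24 FPKM. Lama2 was at 0.03 FPKM or less in every library. Lama1, the alpha chain of the embryonic laminin-111, was at 0.01 FPKM in 1 Naive library and at 0 in the other Naive, Resist and Naive-Mac libraries. It was not listed for Resist-Mac, where 0 of the listed genes were at 0 in every library. Without the filter on low values, Lamb1 was higher in Resist than in Naive tumors by 0.24 on the log2(FPKM + 1) scale (SE 0.06, limma adjusted p = 0.0382), under the fold threshold, and Lama4 by 0.17 (SE 0.06, limma adjusted p = 0.0947). On this scale the change of such low genes is understated. The summed level of 8 endothelial markers was 0.79 to 2.12 FPKM in Naive and 0.54 to 5.12 FPKM in Resist, with none of the 8 at 0 in all libraries of either group, and that of 12 stromal and osteoblast markers was 12.4 to 18.6 and 12.6 to 39.8 FPKM, with Bglap and Sp7 at 0 in every Naive library. The part of such cells in the Lamb1 and Lama4 values was not tested.

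The question of which trimers the cells can build was put to the RNA by taking, in each library, the lowest of the 3 chains of each of the laminins considered. This says nothing of the protein, which was not measured here. The depleted groups are also of other batches, and changes against them rose with transcript length. The part of batch and length in these lowest-chain levels was not tested. The lowest chain of laminin-521 averaged 35.2 ± 5.21 FPKM (SD, n = 5) in Naive, 36.9 ± 3.57 in Resist, 19.8 ± 3.22 in Resist-Mac and 3.72 ± 1.43 in Naive-Mac tumors. Its lowest chain was Lama5 in 5 of 5 Naive libraries and Lamc1 in 5 of 5 Resist and 5 of 5 Resist-Mac libraries. The amount set by the lowest chain overlapped between Naive and Resist tumors, with ranges of 29.73 to 42.95 and 30.88 to 40.16 FPKM, while the chain that set it was a different one. For laminin-321, which pairs alpha 3 with the beta and gamma chains of laminin-521, the lowest chain was Lama3 in all 20 libraries, and it averaged 9.48 ± 3.09 FPKM in Naive, 7.23 ± 2.19 in Resist, 3.49 ± 0.673 in Resist-Mac and 0.442 ± 0.143 in Naive-Mac tumors. Laminins that need beta 1, such as laminin-511, were set by Lamb1 and averaged at most 0.458 FPKM in any group. Those with alpha 4 in place of alpha 5, such as laminin-421, averaged at most 0.2 FPKM. Lamb2 made up 99.3% to 99.9% of the Lamb1 and Lamb2 FPKM on average in each group.

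**Figure D2:**
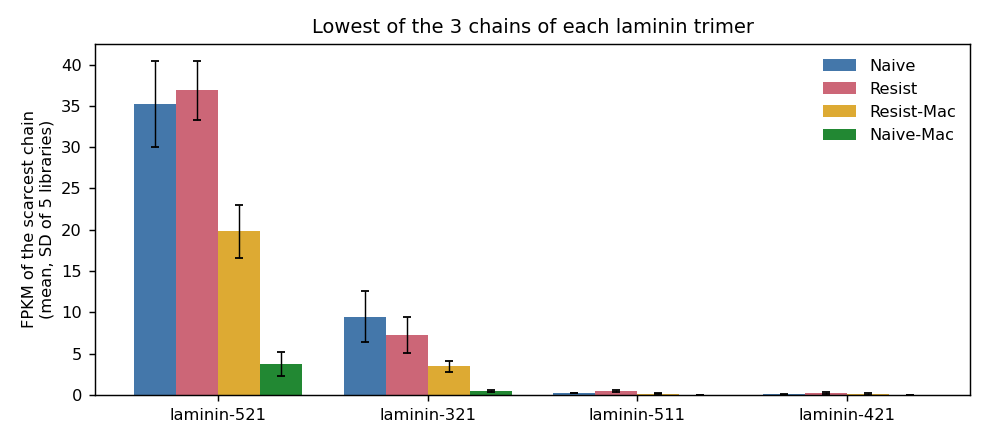
Mean FPKM of the lowest of the 3 chains of 4 laminin trimers (bars from 0, SD of 5 libraries) in the 4 groups. Laminin-521 stands highest in every group, at 35.2 FPKM in Naive and 36.9 in Resist, and laminin-511 and laminin-421 are near 0. The part of batch and transcript length in these levels was not tested.

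In Resist vs. Naive, which asks what differed after enzalutamide treatment, Lama5 and Lamb2 were called higher and no tested laminin chain was called lower. The estimated changes of Lamc1, Lama3 and Lamb3 were below 0. Among all 10119 genes with a test, 5.25% were called higher in Resist and 1.11% were called lower. Of the 5 laminin chains tested, 2 were called higher and 0 lower, and at an unadjusted p under 0.05 limma also gave 2 and 0. Tests took genes whose mean in the compared libraries reached 1 FPKM, and a call needed a limma adjusted p below 0.05 together with a change of more than 1.5-fold on log2(FPKM + 1). The median change of the 5 chains was -0.12 on the log2 scale, beside 0.03 for all genes tested.

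Lama5 was at 29.73, 37.85, 32.38, 42.95 and 33.27 FPKM in Naive replicates 1 to 5 and at 61.94, 47.07, 74.46, 66.41 and 44.54 FPKM in Resist. Every Resist library was above every Naive library, although the lowest Resist library exceeded the highest Naive one by little. The ratio of the means was 1.67, and the log2 change was 0.71 (SE 0.14, limma adjusted p = 0.00585). Lamb2, which is a beta partner of the alpha 5 chain, was at 35.83, 41.25, 39.40, 46.73 and 42.53 FPKM in Naive and 76.69, 55.89, 67.38, 66.68 and 51.99 FPKM in Resist. Again the groups did not overlap. The share of all genes without overlap in Resist vs. Naive was not determined. The ratio of the means was 1.55 and the log2 change 0.61 (SE 0.10, limma adjusted p = 0.00252), close to the fold threshold. Without Naive replicate 1 it was 0.56 and without Resist replicate 1 it was 0.54, and in each case Lamb2 was no longer called because of the fold.

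Lamc1, the gamma chain shared by most laminins, was at 35.04, 45.47, 34.35, 44.55 and 41.35 FPKM in Naive and 30.88, 40.16, 37.95, 36.80 and 38.67 FPKM in Resist. The groups overlapped, and the log2 change of -0.12 had a 95% confidence interval from -0.32 to 0.09 (limma adjusted p = 0.422), which does not reach the changes of Lama5 or Lamb2. Lama3 and Lamb3 were not called. Lama3 was at 5.58, 9.70, 13.94, 7.91 and 10.27 FPKM in Naive and 4.66, 9.11, 6.49, 9.87 and 6.00 FPKM in Resist, with a log2 change of -0.34 and an interval from -0.82 to 0.14. Lamb3 had the widest interval of the 5 chains tested. It was at 5.37, 6.66, 7.91, 5.68 and 2.67 FPKM in Naive and 5.48, 1.02, 3.89, 3.16 and 9.15 FPKM in Resist. Its interval, from -1.18 to 0.39, allows a fall of more than the fold threshold as well as no change.

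Proportions between chains of the same library are free of the scale of that library, but not of a trend with transcript length. The ratio of Lama5 to Lamc1 was 0.805 to 0.964 in Naive and 1.15 to 2.01 in Resist libraries, which did not overlap. That of Lamb2 to Lamc1 was 0.907 to 1.15 in Naive and 1.34 to 2.48 in Resist, again with no overlap, while Lamb2 to Lama5 overlapped at 1.09 to 1.28 and 0.905 to 1.24. Both Lama5 and Lamb2 were thus higher against Lamc1 in every Resist library than in any Naive library. The share of Lama5 in the FPKM of the 5 alpha chains was 78.8 ± 6.03% (SD, n = 5) in Naive and 88.5 ± 3.72% in Resist, with overlap of the ranges of 69.8 to 84.3% and 83.7 to 92.8%. Against gamma 1 the depleted groups differed between the chains. Lamb2 to Lamc1 was 1.66 to 2.34 in Resist-Mac and 2.46 to 2.84 in Naive-Mac libraries, whereas Lama5 to Lamc1 was 1.26 to 1.7 and 0.656 to 1.26. The longest transcripts are of 5629 bases for Lamb2, 7622 for Lamc1 and 11388 for Lama5. Changes against the depleted groups rose with length (Spearman's rho 0.642 in Resist vs. Resist-Mac and 0.709 in Naive vs. Naive-Mac). The part of length in these ratios was not tested.

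**Figure D3:**
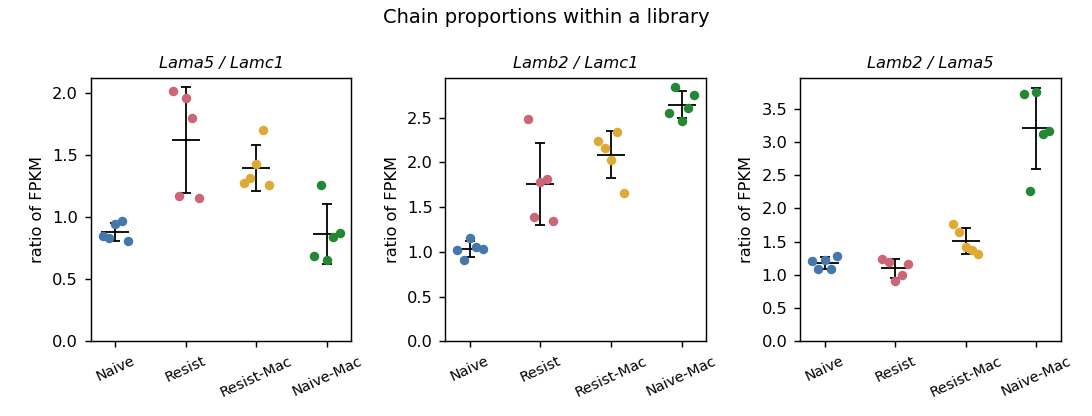
Ratio of Lama5 to Lamc1, ratio of Lamb2 to Lamc1, and ratio of Lamb2 to Lama5, all from FPKM in each library (points), with group means and SD of 5 libraries. In Naive libraries Lamb2 to Lamc1 lies between 0.907 and 1.15, below every library of the other 3 groups, and Lamb2 to Lama5 is highest in Naive-Mac, at 2.26 to 3.75. The part of transcript length in these ratios was not tested.

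The laminin chains were then compared between groups with and without clodronate liposomes. In Resist vs. Resist-Mac, 4 of the 5 chains tested were higher in Resist, where 9.71% of 10049 genes were called higher. Their median log2 change was 0.85, beside -0.02 for all genes tested. Lama5 was at 21.87, 20.45, 33.41, 35.46 and 27.42 FPKM in Resist-Mac, and each library was below every Resist library. Its log2 change, Resist minus Resist-Mac, was 1.06 (SE 0.18, limma adjusted p = 0.000667). Lamb2 was at 38.67, 33.72, 47.48, 48.71 and 35.90 FPKM in Resist-Mac, also below every Resist library, with a change of 0.63 (SE 0.13, limma adjusted p = 0.00252). The share of all genes without overlap in this comparison was not determined. Lamb2 is just past the fold threshold here as well. Without Resist replicate 1 the change was 0.56, and without Resist-Mac replicate 2 it was 0.57, and it was then not called.

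Lamc1, which had not differed detectably between Naive and Resist, was lower in Resist-Mac. It was at 17.27, 15.62, 23.40, 20.82 and 21.69 FPKM there, so that Resist was higher by 0.88 in log2(FPKM + 1) (SE 0.12, limma adjusted p = 0.000165) and no overlap. Lama3 was at 3.02, 3.17, 4.03, 4.37 and 2.84 FPKM, with a change of 0.85 (SE 0.18, limma adjusted p = 0.00285), and the groups did not overlap. For Lamc1 and Lama3 too, the share of all genes without overlap was not determined. Lamb3 was at 1.56, 1.14, 4.45, 2.41 and 2.29 FPKM and overlapped with Resist (0.60, SE 0.37, limma adjusted p = 0.212). When Resist replicate 2 was left out, the library with the lowest Lamb3 value of its group, the change was 0.92 and was called (limma adjusted p = 0.0328, with 0.0328 to 0.611 over all settings). The groups of this comparison also differed in neutrophil RNA, with 5 of 8 neutrophil markers called lower in Resist and Ltf, S100a8 and S100a9 among them. Over all 10049 genes tested, 1205 were called lower in Resist. The summed level of 10 macrophage markers was 3.92 to 52.1 FPKM in Resist and 35.5 to 802 FPKM in Resist-Mac, although the latter had received clodronate. Most of it was Lyz2, which neutrophils also express (21.1 and 304 FPKM, called lower in Resist), while Adgre1 averaged 0.058 and 0.274 FPKM and Csf1r 0.324 and 1.13 FPKM, and 0 of the 10 were at 0 in all libraries of either group. The part of these cells in the laminin values was not tested.

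Transcript length moved with these results. Over 10027 genes with a known length, the log2 change in Resist vs. Resist-Mac rose with length (Spearman's rho 0.642 across genes, which are not independent replicates), and the 5 chains tested have longest transcripts of 4867 to 11388 bases. The 2873 genes of at least 4500 bases had a median log2 change of 0.36, with quartiles of 0.12 and 0.61. After a correction of each library for transcript length and GC content, the changes were 0.28 for Lama5, 0.21 for Lamb2, 0.29 for Lamc1, 0.11 for Lama3 and 0.28 for Lamb3, and 0 of the 5 were called. Lamc1 kept a limma adjusted p of 0.0418 (2.42e-05 to 0.0418 over all settings) and was under the fold threshold, and 2 of the 5 had an unadjusted p under 0.05. In Resist vs. Naive, from 1 table, rho was 0.155 and the 2871 long genes had a median change of 0.07. There the corrected changes of Lama5 and Lamb2 were 0.56 (SE 0.11, limma adjusted p = 0.00422, 0.00157 to 0.0357 over all settings) and 0.51 (SE 0.08, limma adjusted p = 0.00158, 0.000624 to 0.0119 over all settings), past the p threshold and under the fold threshold, so that limma called 0 of the 5 chains, with 3 at an unadjusted p under 0.05.

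**Figure D4:**
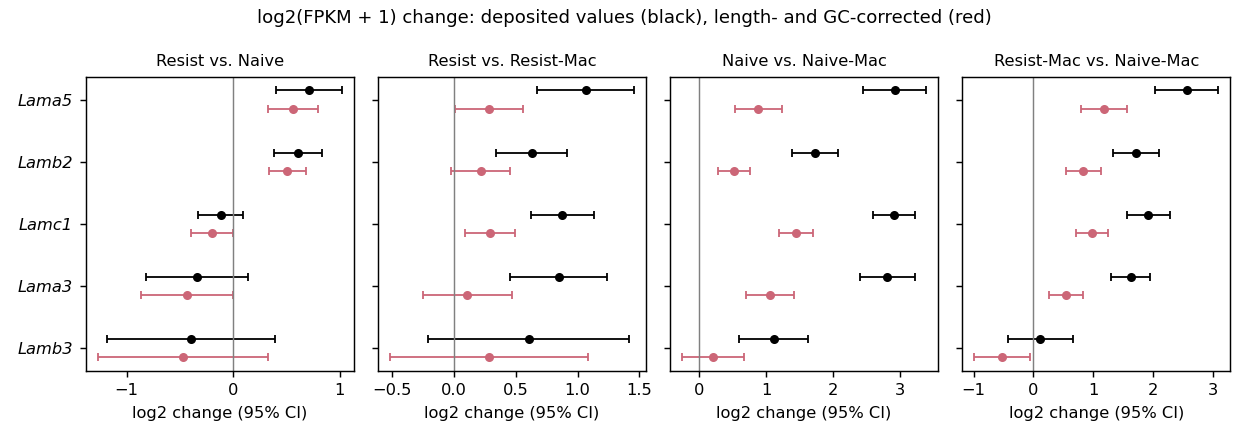
Change in log2(FPKM + 1) of 5 laminin chains in 4 comparisons (first group minus second), with 95% confidence intervals, from the deposited values (black) and after correction for transcript length and GC content (red). In Resist vs. Naive the red values lie a little to the left of the black ones, and in the other comparisons they lie closer to 0 than the black ones for every chain but Lamb3 in Resist-Mac vs. Naive-Mac.

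In Naive vs. Naive-Mac, 5 of the 5 laminin chains tested were higher in Naive, where 37.5% of 9837 genes were called higher. Of these chains, Lama3 reached the mean of 1 FPKM only through the Naive libraries (9.48 FPKM, and 0.442 in Naive-Mac). Without the filter on low values it was also called (limma adjusted p = 4.84e-07). The median of the chains was 2.82 on the log2 scale, beside 0.23 for all genes tested and 1.27 for the 2712 genes of at least 4500 bases. Lama5 was at 2.05, 7.30, 2.94, 4.33 and 3.50 FPKM in Naive-Mac, with a ratio of the means of 8.76 and a difference of 2.92 in log2(FPKM + 1) (SE 0.22, limma adjusted p = 4.25e-08). Lamc1 was at 3.00, 5.80, 4.48, 5.16 and 4.03 FPKM, with a ratio of 8.93 and a change of 2.92 (SE 0.14, limma adjusted p = 1.41e-09). Lamb2 was at 7.64, 16.49, 11.03, 13.49 and 11.08 FPKM, with a ratio of 3.44 and a change of 1.74 (SE 0.16, limma adjusted p = 3e-07). None of these 3 overlapped with Naive, and the share of all genes without overlap was not determined. Lamb2 RNA was above that of its partners in every Naive-Mac library, with a ratio to Lama5 of 2.26 to 3.75. Lamb2 also has a shorter longest transcript than Lamc1 and Lama5, and the part of length in this order was not tested.

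Lama3 and Lamb3 were also higher in Naive than in Naive-Mac tumors. Lama3 was at 0.20, 0.55, 0.46, 0.55 and 0.45 FPKM, against 5.58 or more in Naive, and the difference was 2.82 in log2(FPKM + 1) (SE 0.19, limma adjusted p = 1.53e-08). Lamb3 was at 0.92, 2.06, 2.39, 2.94 and 1.86 FPKM, with a change of 1.11 (SE 0.24, limma adjusted p = 0.000746), although the lowest Naive library lay within the Naive-Mac range. After the length and GC correction, Lama3 (1.06), Lama5 (0.89) and Lamc1 (1.45) were still called, and Lamb2 (0.52) and Lamb3 (0.21) were not. Quantile normalization also ended the call of Lamb3 (0.43, limma adjusted p = 0.0707, 6.32e-05 to 0.4 over all settings), which left 4 chains called.

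Resist-Mac and Naive-Mac tumors, which differ in enzalutamide and in batch, were compared directly. Of 9760 genes tested, 37.2% were called higher in Resist-Mac, and 4 of 5 laminin chains were. Among these chains, Lama3 reached the mean of 1 FPKM only through the Resist-Mac libraries (3.49 FPKM, and 0.442 in Naive-Mac). Without the filter on low values it was also called (limma adjusted p = 7.38e-06). The changes were 2.57 for Lama5 (SE 0.24, limma adjusted p = 2.39e-06), 1.93 for Lamc1 (SE 0.17, limma adjusted p = 1.2e-06), 1.72 for Lamb2 (SE 0.18, limma adjusted p = 4.32e-06) and 1.63 for Lama3 (SE 0.15, limma adjusted p = 2.03e-06). The groups did not overlap for any of these chains, and the share of all genes without overlap was not determined. Lamb3 overlapped, at 0.12 (SE 0.25, limma adjusted p = 0.71). The genes of at least 4500 bases had a median change of 1.00, and the corrected changes were 1.18 for Lama5, 0.98 for Lamc1 and 0.83 for Lamb2, which were still called, and 0.54 for Lama3, which was not. The direction of Lamb3 in this comparison was below 0 with median-ratio scaling, quantile normalization and the length and GC correction.

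The change with clodronate in enzalutamide-treated tumors, Resist minus Resist-Mac, was set against that in vehicle-treated tumors, Naive minus Naive-Mac, with all 20 libraries in 1 fit. Here a gene was called at a limma adjusted p under 0.05 alone. It was called below 0, a smaller change in the enzalutamide-treated tumors, for 38.3% of 9876 genes and for 4 of the 5 laminin chains, and the median over all genes was -0.28. It was -2.04 for Lamc1 (SE 0.19), -1.97 for Lama3 (SE 0.27), -1.86 for Lama5 (SE 0.30) and -1.11 for Lamb2 (SE 0.22), while that of Lamb3 was -0.51 (SE 0.47, limma adjusted p = 0.38). Genes of at least 4500 bases had a median difference of -0.86. With the length and GC correction the differences were -1.21 for Lamc1, -1.02 for Lama3 and -0.67 for Lama5, still called, and -0.35 for Lamb2, which was not (limma adjusted p = 0.079, 4.11e-05 to 0.079 over all settings).

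**Figure D5:**
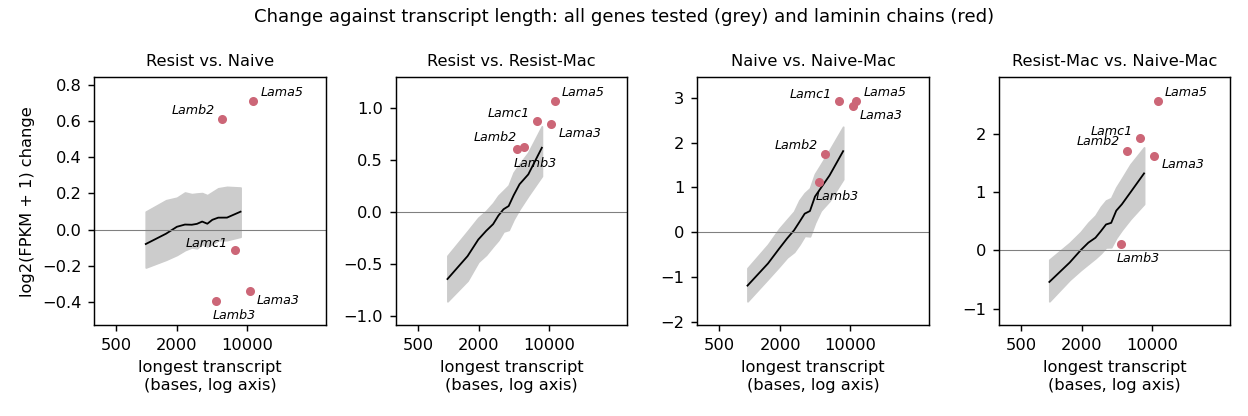
Change in log2(FPKM + 1) against the length of the longest transcript (log axis) in 4 comparisons. The black line and gray band give the median and quartiles of all genes tested in 12 bins of length, and red points are laminin chains. In Resist vs. Naive the line is nearly flat and Lama5 and Lamb2 lie above the band, and in the comparisons with a depleted group the line rises with length and most of the chains lie above it.

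Among libraries of the same group, Lama5 and Lamb2 varied together most. The correlation of their deviations from the group means of log2(FPKM + 1), over 20 libraries, was 0.914, and 0% of the other 9875 genes correlated more closely with either. By the same measure Lama5 and Lamc1 had 0.698, and Lamb2 and Lamc1 had 0.611. Lama3 and Lamb3 had -0.103. These values are a description. The points share library, depth and transcript length, and the median correlation of any gene with Lama5 was 0.211. Next to Lamb2, the gene most like Lama5 was Lrp5 (0.902), and next to Lama5, the gene most like Lamb2 was Cdc42ep4 (0.903). Stard13 (0.869) and Atg9a (0.848) were most like Lamc1, Klf7 (0.756) and Zfp568 (0.736) most like Lama3, and Pisd (0.771) and Coasy (0.759) most like Lamb3.

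Cells hold laminin through integrins and dystroglycan. Of 13 laminin receptor genes, 8 were tested in Resist vs. Naive, with 2 called higher and 1 lower, and a median log2 change of 0.06. Itga3, whose product pairs with Itgb1 to bind laminins such as laminin-511 and laminin-521, averaged 82.8 FPKM in Naive and 175 in Resist (log2 change 1.03, SE 0.21, limma adjusted p = 0.0056), with ranges of 61.94 to 105.14 and 95.68 to 232.07 FPKM that overlapped. Itga6, the other main laminin-binding alpha integrin, fell from 55.4 to 31.8 FPKM (-0.79, SE 0.14, limma adjusted p = 0.00287), and its ranges of 42.95 to 64.18 and 26.89 to 45.06 FPKM overlapped. Sdc1, a syndecan, rose from 30.8 to 53.3 FPKM (0.77, SE 0.14, limma adjusted p = 0.00393). Of the 8 receptors, 0 were called in Resist vs. Resist-Mac, since Cd151, Sdc1 and Dag1, with limma adjusted p values of 0.00358, 0.016 and 0.0391, were under the fold threshold. At an unadjusted p under 0.05, limma gave 4 receptors higher and 3 lower. Of all 10049 genes tested there, 976 were called higher in Resist and 1205 lower. Itgb4, the partner of Itga6 in hemidesmosomes, averaged at most 0.478 FPKM in any group. Over all 20 libraries Rpsa, Sdc4 and Cd151 had the highest means of this list, at 2742, 302 and 131 FPKM in Resist. The list was made by gene symbol, and binding of laminin by its products was not measured here. Dag1, the gene of dystroglycan, averaged 129 FPKM in Naive and 133 in Resist. Of 13 genes of dystroglycan glycosylation, which lets it bind laminin, 11 were tested with limma and 0 were called in Resist vs. Naive, with 2 higher and 0 lower at an unadjusted p under 0.05. B3galnt2 (35.5 FPKM in Naive), Pomgnt1 (27) and Rxylt1 (17.3) had the highest means in Naive tumors.

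Of 20 basement membrane partners, 10 were tested in Resist vs. Naive, and 5 were called higher and 0 lower, with a median log2 change of 0.51, where 5.25% of all genes were called higher. The 5 were Sparc (1.31, SE 0.24), which binds collagen, the collagen chains Col4a5 (1.17, SE 0.16) and Col18a1 (0.91, SE 0.19), Smoc2 (0.75, SE 0.23) and Fbln2 (0.71, SE 0.21). Col18a1, at a mean of 0.438 FPKM in Naive and 1.74 in Resist, reached the mean of 1 FPKM only through the Resist libraries. Stromal cells also express such matrix genes, and the stromal markers Col1a1 (1.84 and 5.95 FPKM in Naive and Resist), Col1a2 (1.36 and 4.33) and Col3a1 (0.374 and 1.86) had higher means in Resist but were not called. The summed stromal and endothelial markers are given above with Lamb1, and the part of such cells in the partner genes was not tested. The partners with the highest means were not called. Smoc1 averaged 60.3 FPKM in Naive and 75.3 in Resist, Agrn, which links laminin to dystroglycan, 39.7 and 50.7, and Col4a1, a chain of the main basement membrane collagen, 32.4 and 30.2. Nid1, Nid2 and Hspg2, which connect laminin with the collagen network, averaged at most 0.674 FPKM in any group. Of 10 proteases that cut laminin, 3 were tested, and Bmp1, a protease of matrix proteins, was called higher (6.45 FPKM in Naive and 18.2 in Resist, log2 change 1.27, SE 0.28, limma adjusted p = 0.00995). Mmp9 averaged 4.2 and 2.44 FPKM and the neutrophil elastase Elane 2.96 and 2.53 FPKM in Naive and Resist.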

How the data were processed

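RNA of sorted tumor cells was captured with oligo dT and sequenced with paired ends on a BGISEQ-500. The authors deposited FPKM, as log2(FPKM + 1) for Naive and Resist (turned back to FPKM here) and as linear FPKM for Resist-Mac and Naive-Mac. The submitters' processing notes name Bowtie2 and mm9. The quantifier and annotation are not given in the sources used here. Like the authors, the analysis left out 752 genes named BGI_novel. Entrez identifiers were named with a RefSeq table, which matched 16613 of 16733, 14053 of 14077 and 15827 of 15867 genes. Tests used limma 3.58.1 (R 4.3.3), with the prior variance following mean expression, on the groups compared, and Benjamini-Hochberg adjustment over all genes tested, and were checked on simulated data. Replicates are pools of 3 mice. Transcript length and GC content came from GENCODE (GRCm38), and the correction fitted splines with 4 degrees of freedom in each library. Correlations used genes in all 3 tables with a mean of at least 1 FPKM.

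The members were listed by symbol, without a threshold on any value, but they and the lists were chosen with earlier results of these data known. Named list genes were those called in Resist vs. Naive and the 3 of highest mean FPKM per list. For each chain with a mean of at least 1 FPKM, the 2 genes most like it were named. Dag1, Itgb4, Nid1, Nid2, Hspg2 and the epithelial genes were named after their values were seen. Alternatives were a pseudocount of 0.1, a mean of at least 5 FPKM, no filter, median-ratio scaling, quantile normalization, the length and GC correction, a replicate block, all groups in 1 fit, and leaving out each replicate. Python 3.11.15, pandas 2.3.3, numpy 2.4.6, scipy 1.17.1 and matplotlib 3.10.9 were also used. The results of 2 genes are not reported here.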

Additional observations from a re-analysis of the deposited data

Results flagged for a closer look

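Of 26 sets of 5 libraries, each a chain in a group with a range of at least 0.05 FPKM, 2 had a library far from the others by Dixon's criterion, where chance gives about 1 in 20, or 1.3 sets. Lama3 in Naive-Mac replicate 1 was at 0.20 FPKM, below the others. Lama4 in Resist-Mac replicate 1 was at 0.24 FPKM, above the others, at an estimated 15.7 fragments.

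The difference in the change with clodronate between enzalutamide-treated and vehicle-treated tumors was called below 0 for 4 of the 5 chains tested. It was called below 0 for 38.3% of 9876 genes. The difference was -1.97 for Lama3 (limma adjusted p = 5e-06), -1.86 for Lama5 (2.98e-05), -1.11 for Lamb2 (0.000216) and -2.04 for Lamc1 (3.81e-08), on the log2(FPKM + 1) scale. Genes of at least 4500 bases had a median difference of -0.86. With the length and GC correction Lamb2 was no longer called (-0.35, limma adjusted p = 0.079). The 2 depleted groups are of different batches, and the batch and the depletion cannot be told apart.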

How the results depend on the processing

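In Resist vs. Naive, 2 chains were called, 1 with median-ratio scaling, 0 with the length and GC correction, and 1 to 2 when leaving out each replicate. In Resist vs. Resist-Mac the correction gave 0 of 4, and in Naive vs. Naive-Mac it and a mean of at least 5 FPKM gave 3 of 5 each, the latter with 3 chains tested, and quantile normalization gave 4. Genes called in Resist vs. Naive numbered 643, or 392 at a mean of at least 5 FPKM, and in Resist vs. Resist-Mac 2181, or 898 with the correction. Lamb3 in Resist-Mac vs. Naive-Mac was 0.12, and reversed with median-ratio scaling (-0.18), quantile normalization (-0.63, called), the correction (-0.52), and without Resist-Mac replicate 3 (-0.08) or Naive-Mac replicate 1 (-0.04), within -0.08 to 0.26 over the replicates left out. Its difference of depletion effects, -0.51, reversed with quantile normalization (0.16) and the correction (0.03). The cause was not tested.

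Median-ratio scaling moved the median of all genes by -0.28 in Naive vs. Naive-Mac, -0.39 in Resist-Mac vs. Naive-Mac and 0.30 in the difference of effects. Its calls were 48.2%, 48.4% and 49.8% higher, against 62.9%, 80.5% and 26.1%, and quantile normalization gave 47.9%, 50.5% and 48.4%, and 69.5% against 82.6% in Resist vs. Naive and 54.8% against 44.8% in Resist vs. Resist-Mac. The correction gave 75.6% in Naive vs. Naive-Mac. Same-numbered replicates correlated at -0.376 to 0.356 and so were not paired. With the replicate block, 624 genes and 2 chains were called in Resist vs. Naive, and no chain's call changed. Depth limits Lamb1 and Lama4, read from an estimated 42 fragments at most.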
